A study of Mus musculus with 9 samples.

Results

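Interleukins are secreted signals between immune cells and between immune cells and resident brain cells, and their receptors are built from chains that are often shared between cytokines. The genes described here are the 29 whose symbol begins with Il and a number, of 1710 genes in the deposited table, chosen by symbol alone and whatever their level. They comprise 9 ligands, 17 receptor chains and 3 others, which are the receptor antagonist Il1rn, the binding protein Il18bp and the enzyme Il4i1. GENCODE M21 holds 82 protein-coding genes with such symbols. The other 53 were not in the table, among them Il18, Il2, Il21, Il1r1 and Il6st. Since every listed gene differed between groups, as described below, the 29 do not stand for the whole family.

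Tissue labelled "brain ctx" was taken from wild-type mice 10 days after a stereotaxic injection, in 9 libraries of total RNA, with 3 each in the groups PBS, LowDose and HighDose. PBS is the usual short form of a saline buffer, and the dose names refer to the virus in the title of the series, AAV (adeno-associated virus), which serves as a gene transfer vector. The amounts behind the dose names, and the age and sex of the mice, were not used here. The piece taken was the centre of the injected area, and all 9 libraries, PBS included, carry the same note on a viral injection by stereotaxy. That the libraries within a group are from different mice is not stated, so that n, SD, SE and p measure the spread between libraries, which may be technical. The comparisons ask what each dose changed in these genes and how the doses differed.

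As background, interleukins of the IL-1 family act through receptors that share the adaptor Myd88, and most other interleukins act through JAK kinases and STAT factors. IL-1 and IL-6 are made early by activated microglia and macrophages. The chains Il2rb and Il2rg serve receptors of T and NK cells, and IL-33 is stored in the nuclei of astrocytes and oligodendrocytes and is released when such cells are damaged.

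Library totals, in units of 1e6 counts, were 18.3 to 21.7 in PBS, 18.7 to 23.7 in LowDose and 20.9 to 23.1 in HighDose. Each of the 1710 listed genes differed at least 2-fold in mean FPKM (fragments per kilobase of transcript, scaled to the library total) between at least 1 pair of groups. All 29 interleukin genes met this between HighDose and PBS, 28 between HighDose and LowDose and 6 between LowDose and PBS. The HighDose tests therefore repeat part of the choice that put the genes in the table. Il33 lay closest to that limit, with a log2 ratio of mean FPKM of 1.0008, followed by Il6ra at 1.17 and Il4r at 1.38. The tissue label could not be checked against cortex, since 0 of 8 cortical neuron markers were in the table. Striatal neuron markers were present, 9 of 9, whose summed CPM (counts scaled to 1e6 of a library) was 817 to 1221 in PBS, 283 to 669 in LowDose and 275 to 318 in HighDose.

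All 27 tested interleukin genes rose in HighDose against PBS when scaled by the library totals, while Il33 and Il6ra were called lower, and Il13ra1 came to just below 0, under scalings within the listed genes. The libraries of the 2 groups did not overlap in any of the 29. They ranged from 2.06-fold for Il33 to 353-fold for Il1rn, whose size rests on few PBS counts (log2 change 9.98 without PBS replicate 2 and 7.87 without PBS replicate 3, against 8.46). The share called higher was 86.3% among all 1583 tested genes, and in 86.1% of the 1710 listed genes every HighDose library lay above every PBS library, so that most of the table did likewise. Called lower were 0 of 27 members and 10.7% of tested genes, and lying wholly below PBS 0 of 29 members and 9.71% of listed genes. The members had a median log2 change of 3.18, against 1.90 for all tested genes, with 2.49 for the 7 tested ligands, 3.04 for the 17 receptor chains and 4.11 for the 3 others. Il10 and Il27 did not pass the filter on low counts. Of the 27 tested members, 13 passed it only with the HighDose libraries, and had to be high there to be tested at all. Over the whole table this held for 384 of the 1583 tested genes. The share was larger among the members, and the medians above are not adjusted for it. In 26 of the 29 members HighDose replicate 1 was the lowest of the 3 HighDose libraries, and in 24 replicate 3 was the highest. Among the 1473 listed genes with every HighDose library above PBS these shares were 84.6% and 76.7%.

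**Figure D1:**
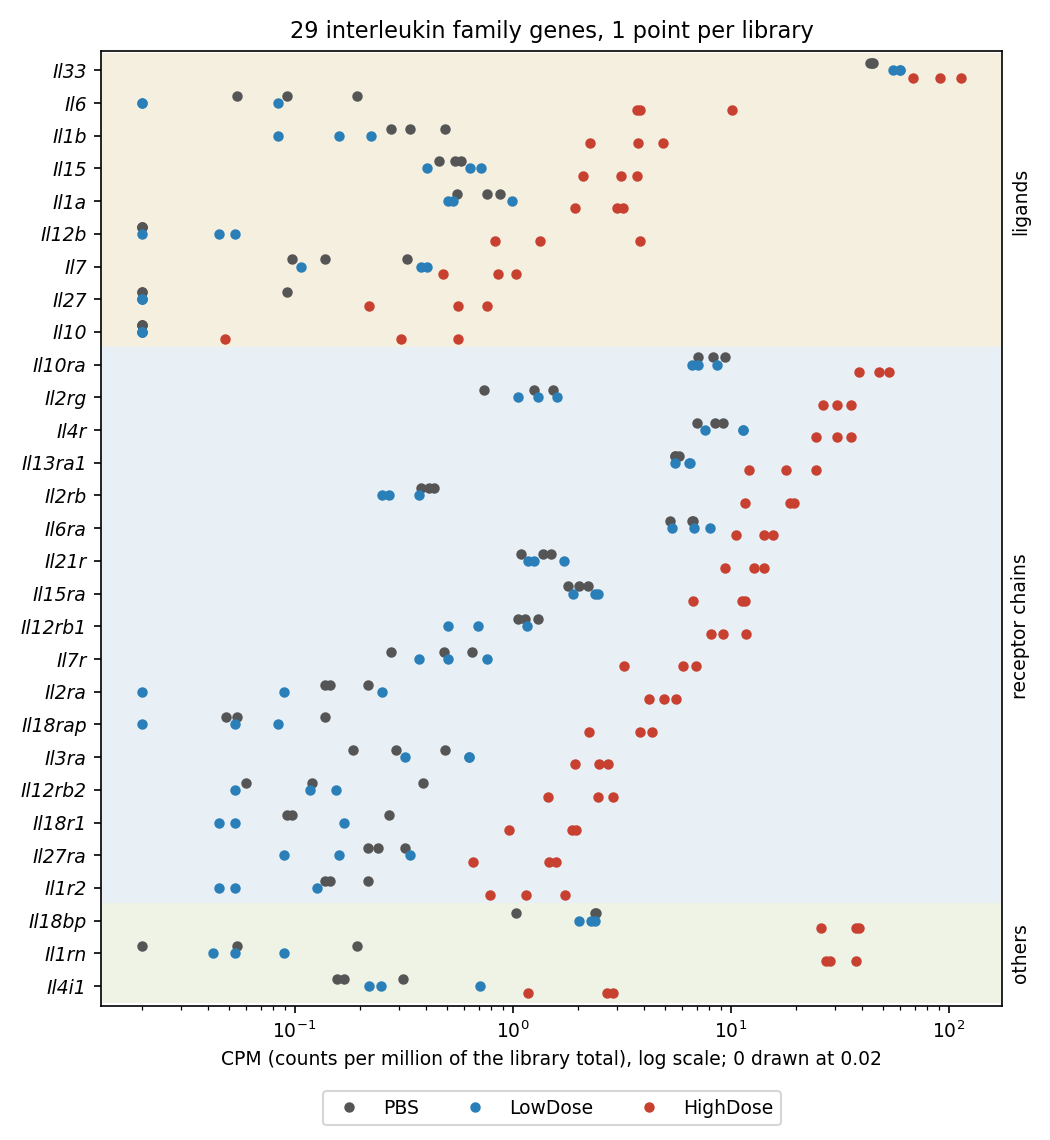
Level of each of the 29 genes in every library, on a logarithmic axis in CPM, with 0 drawn at 0.02, by role and by mean level in HighDose. In each gene the 3 HighDose libraries lie to the right of the 3 PBS and the 3 LowDose libraries, and Il33 is the highest in all 3 groups.

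Promoter windows from RefSeq (GRCm38.p6, the same assembly as mm10), 250 bases before to 50 after each start, were found for 21 of the 29 members, in 27 windows. They are shown as a description of motif letters only, and neither binding nor regulation of these genes was tested. No entry was found for Il10, Il10ra, Il12rb1, Il15, Il27, Il27ra, Il2rb and Il7. The STAT motif TTCNNNGAA (palindromic, so read on both strands at once) was in the windows of 4 of the 21 members, Il12rb2, Il18r1, Il1r2 and Il7r, and in 8.30% of all 32851 windows against 14.8% of the 27. The NF-kB motif, searched in its usual form on both strands, was in the windows of Il6, Il2ra, Il12rb2 and Il4r, the last 2 across or after the start, and in 8.46% of all windows against 14.8% of the 27. The core of the interferon-stimulated response element (GAAA, any 2 bases, GAAA, on both strands) was in 0 of the 27 windows and in 3.44% of all, which says only that these letters are not in these windows. Capitals mark the motif, every stretch reads 5′ to 3′ along the gene, and it ends before the RefSeq start used. Il6 and Il2ra carry the NF-kB letters, in Il2ra as overlapping matches, and the last 4 the STAT letters. The Il18r1 stretch belongs to the third of its 3 annotated starts. In Il18r1, Il1r2 and Il7r the stretch lies inside the GENCODE span of the gene, not upstream of it. These spans begin at 40465552 and 40074079 for Il18r1 and Il1r2, and at 9530176 for Il7r, on the minus strand.
Il6, chr5:30013045-30013104, plus strand: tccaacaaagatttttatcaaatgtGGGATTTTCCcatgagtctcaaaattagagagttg
Il2ra, chr2:11642566-11642626, plus strand: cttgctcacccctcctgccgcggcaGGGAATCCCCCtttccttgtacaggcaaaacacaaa
Il12rb2, chr6:67376278-67376336, minus strand: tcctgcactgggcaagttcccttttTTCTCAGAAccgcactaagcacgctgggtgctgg
Il7r, chr15:9529985-9530043, minus strand: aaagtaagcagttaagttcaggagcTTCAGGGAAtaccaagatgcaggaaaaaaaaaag
Il1r2, chr1:40085957-40086015, plus strand: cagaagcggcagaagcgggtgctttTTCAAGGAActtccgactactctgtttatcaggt
Il18r1, chr1:40465762-40465887, plus strand: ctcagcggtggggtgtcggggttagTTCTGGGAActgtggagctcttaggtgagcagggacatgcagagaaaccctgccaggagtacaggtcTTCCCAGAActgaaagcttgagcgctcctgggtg

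Among the ligands, Il33 had the highest FPKM in every group and the smallest log2 change in HighDose. Il33 (chromosome 19, 29925114 to 29960718, plus strand of mm10) stood at 43.7, 44.99 and 44.4 CPM in the PBS libraries and at 68.8, 91.3 and 114 CPM in HighDose. The HighDose libraries spread more than those of PBS, and all lay above them (log2 change 1.04 ± 0.22, SE, adjusted p = 2.64e-05, edgeR quasi-likelihood test with Benjamini-Hochberg adjustment, as for all adjusted p-values below unless another tool is named). Of the 1583 tested genes, 1234 had a higher log2 change. Under scalings within the listed genes Il33 was called lower. Per length, Il33 held 92.4% to 94.1% of the summed FPKM of the 9 ligands in PBS and 67.8% to 74.7% in HighDose.

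Il6, a cytokine of the acute phase and of B and T cell help, went from a few counts to 5.59 FPKM on average, next to Il33 among the ligands. It had 1, 4 and 2 counts in the PBS libraries and 88, 78 and 235 in HighDose, or 3.85, 3.73 and 10.2 CPM. Replicate 3 was well above the other 2, and all 3 were far above PBS (log2 change 5.62 ± 0.56, adjusted p = 4.38e-12). The log2 change was 4.97 without HighDose replicate 3 and 6.20 without PBS replicate 2. Il6 (chromosome 5, 30013114 to 30019981, plus strand) carries the NF-kB letters shown above.

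Both IL-1 genes, which encode the main fever-inducing and endothelium-activating cytokines, rose by the library totals, with the larger log2 change in Il1b. Il1b was at 0.491, 0.339 and 0.277 CPM in PBS and at 2.28, 3.78 and 4.90 CPM in HighDose (log2 change 3.30 ± 0.47, adjusted p = 3.39e-08). Il1a, which is also released by dying cells, was at 0.763, 0.872 and 0.553 CPM in PBS and at 1.93, 3.01 and 3.21 CPM in HighDose (1.89 ± 0.43, adjusted p = 0.000104). Under scalings within the listed genes the log2 change of Il1a was 0.18 with TMM and 0.21 with size factors, not called under either. Per length, the level of Il1a was 1.08, 1.76 and 1.40 times that of Il1b in PBS, but 0.583, 0.548 and 0.449 times in HighDose. The order of the pair in FPKM was thus turned in every HighDose library. The genes lie 54.6 kb apart on chromosome 2, and annotated RNAs overlap an exon of each on the other strand.

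The ligands of T and NK cells were present at low levels. Il15, which keeps NK and memory T cells alive, was at 0.545, 0.581 and 0.461 CPM in PBS and at 2.10, 3.16 and 3.73 CPM in HighDose (log2 change 2.49 ± 0.44, adjusted p = 2.34e-06). Il7, a survival factor of T cells, was at 0.327, 0.0968 and 0.138 CPM in PBS and at 0.481, 0.861 and 1.04 CPM in HighDose (2.08 ± 0.64, adjusted p = 0.00264, and 2.69 without PBS replicate 1). The lowest HighDose library of Il7 was close to the highest PBS library. Under scalings within the listed genes Il7 was not called, and Il15 was not called with TMM.

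Ligands of the IL-12 family and Il10 were almost absent without the high dose. Il12b, the p40 subunit that IL-12 and IL-23 share, had 0 counts in the PBS libraries and 19, 28 and 89 in HighDose. This is at least 41.2-fold higher than a floor of 3 counts over the PBS group. HighDose replicate 3 held 89 of the 136 counts, and without it the bound was 21.7-fold. Il27, a subunit of IL-27, had 0, 0 and 2 counts in PBS and 5, 16 and 13 in HighDose, a ratio of 15.4 (95% exact counting interval 3.96 to 133). Il10, an anti-inflammatory cytokine, had 0 counts in PBS and in LowDose and 7, 1 and 13 in HighDose, at least 6.36-fold above the PBS floor, and 3.70-fold without HighDose replicate 3. Without 1 PBS library the floor is higher, and the bounds were as low as 26.4-fold for Il12b, 4.08-fold for Il10 and 6.61-fold for Il27, all without PBS replicate 3, and without PBS replicate 2 they were 27.2 and 4.19 and the Il27 ratio 10.2. These intervals and floors cover counting error only. The 3 counts correspond to 0.126 to 0.164 CPM in a single library, and the Il10 value of HighDose replicate 2, 1 count, lies below it.

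Among the receptor chains, Il2rb, Il18rap, Il2ra and Il2rg had the largest log2 changes. Il2rb, a signalling chain of the IL-2 and IL-15 receptors, was at 0.382, 0.436 and 0.415 CPM in PBS and at 11.6, 18.8 and 19.5 CPM in HighDose (log2 change 5.32 ± 0.35, adjusted p = 9.29e-18). Il2ra, the chain that gives the IL-2 receptor high affinity and is found on activated and regulatory T cells, had 4, 3 and 3 counts in PBS and 97, 104 and 129 in HighDose (4.85 ± 0.52, adjusted p = 2.20e-11). Il2rg, the common gamma chain of the receptors for IL-2, IL-4, IL-7, IL-9, IL-15 and IL-21, was at 1.53, 1.26 and 0.738 CPM in PBS and at 26.6, 30.9 and 35.5 CPM in HighDose (4.73 ± 0.29, adjusted p = 9.54e-19). In these 3 genes the PBS libraries were far below the lowest HighDose library. Il2rg (chromosome X, 101264378 to 101268255, minus strand) shares exon sequence with the gene model Gm20489 on its own strand.

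Other chains that pair with the common gamma chain had smaller log2 changes. Il15ra, which presents IL-15 to neighbouring cells, went from 2.02, 2.23 and 1.80 CPM in PBS to 6.74, 11.3 and 11.6 in HighDose (log2 change 2.29 ± 0.30, adjusted p = 6.19e-09). Il7r, a receptor of naive and memory T cells, went from 0.654, 0.484 and 0.277 CPM to 3.24, 6.94 and 6.02 (3.52 ± 0.43), and Il21r from 1.09, 1.501 and 1.38 to 9.45, 12.8 and 14.2 (3.18 ± 0.31). The IL-4 receptor chain Il4r was already at 7.03, 9.25 and 8.44 CPM in PBS and reached 24.5, 30.9 and 35.6 (1.88 ± 0.24). Il13ra1, its partner for IL-13, went from 5.56, 5.81 and 5.58 CPM to 12.1, 18.0 and 24.7 (1.69 ± 0.25). Both lay below the median of all tested genes, as did Il33, Il6ra and Il1a, and no other tested member. Neither Il4r nor Il13ra1 was called under scalings within the listed genes.

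The 2 chains of the IL-18 receptor, found on NK cells and T cells, were near 0 in PBS. Il18rap, its signalling chain, had 1, 1 and 3 counts in PBS and 51, 80 and 101 in HighDose (log2 change 5.31 ± 0.61, adjusted p = 1.63e-10, and 5.93 without PBS replicate 3). Il18r1, its binding chain, had 5, 2 and 2 counts in PBS and 22, 39 and 45 in HighDose (3.36 ± 0.62, adjusted p = 4.40e-06, and 3.99 without PBS replicate 1). Per length, Il18rap was below Il18r1 in each PBS library, at 0.143, 0.333 and 0.600 of its FPKM, and above it in each HighDose library, at 1.53, 1.5 and 1.92. The PBS ratios rest on few counts. The genes are neighbours, 14.5 kb apart on chromosome 1.

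Chains of the IL-12, IL-27, IL-6, IL-10 and IL-3 receptors all rose by the library totals. Under scalings within the listed genes Il6ra was called lower and Il27ra was not called. Il12rb1, the chain shared by the IL-12 and IL-23 receptors, went from 1.14, 1.31 and 1.06 CPM in PBS to 8.14, 11.8 and 9.19 in HighDose (log2 change 3.04 ± 0.34). Its level in HighDose replicate 3 was 1.13 times that in replicate 1, the lowest such ratio of the 29. Il12rb2, the signalling chain of IL-12, rose by 3.61 ± 0.58 from estimated counts of 2.20, 1.24 and 8.43 to 33.2, 51.4 and 66.7. Without PBS replicate 3 the log2 change was 4.77. Its counts were not whole in any of the 9 libraries, for which no reason is given in the sources used here, and its values are uncertain. Il27ra rose by 2.21 ± 0.58. Il10ra, which binds IL-10 and is found on microglia and macrophages, went from 8.34, 9.44 and 7.10 CPM in PBS to 38.8, 47.7 and 53.2 in HighDose (2.49 ± 0.23, adjusted p = 5.23e-13). Il6ra, the binding chain for IL-6, changed least of the receptor chains, from 5.29, 6.63 and 6.73 CPM to 10.6, 14.3 and 15.7 (1.12 ± 0.25, adjusted p = 7.62e-05). Il3ra rose by 2.89 ± 0.50.

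Il1rn, Il18bp and Il1r2 encode proteins that hold IL-1 or IL-18 signals back, and all 3 rose. Il1rn encodes the antagonist that occupies the IL-1 receptor without signalling. Il1rn (chromosome 2, 24336853 to 24351494, plus strand) had 1, 4 and 0 counts in PBS and 653, 574 and 865 in HighDose, which is 28.6, 27.5 and 37.5 CPM. Its log2 change of 8.46 ± 0.42 (adjusted p = 5.67e-22) was exceeded by 19 of the 1583 tested genes. Per length, the level of Il1rn was 0.0400, 0.275 and 0 times the sum of Il1a and Il1b in the PBS libraries and 6.72, 3.96 and 4.53 times in HighDose. Antagonist transcripts were thus below the agonist sum in every PBS library and above it in every HighDose library, the PBS ratios resting on 5 counts of Il1rn.

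Il18bp, which binds and neutralises IL-18, was at 1.04, 2.42 and 2.40 CPM in PBS and at 25.99, 38.7 and 37.6 in HighDose (log2 change 4.11 ± 0.29, adjusted p = 4.22e-17). PBS replicate 1 was low against its group. Il1r2, a decoy receptor that binds IL-1 without signalling, had 4, 3 and 3 counts in PBS and 18, 24 and 40 in HighDose (2.84 ± 0.61, adjusted p = 4.44e-05). Il4i1, a secreted amino acid oxidase first found as an IL-4 target, rose by 3.38 ± 0.57. It shares exons with Nup62 and its counts were not whole in any of the 9 libraries, so that its values are uncertain. In 11 of the 29 members, Il18bp, Il1a, Il1b, Il12rb2, Il27, Il27ra, Il3ra, Il4i1, Il4r, Il6ra and Il7, an exon overlaps a gene on the other strand. The sources used here do not say whether the counting used strand, and without it the reads of such pairs cannot be told apart.

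**Figure D2:**
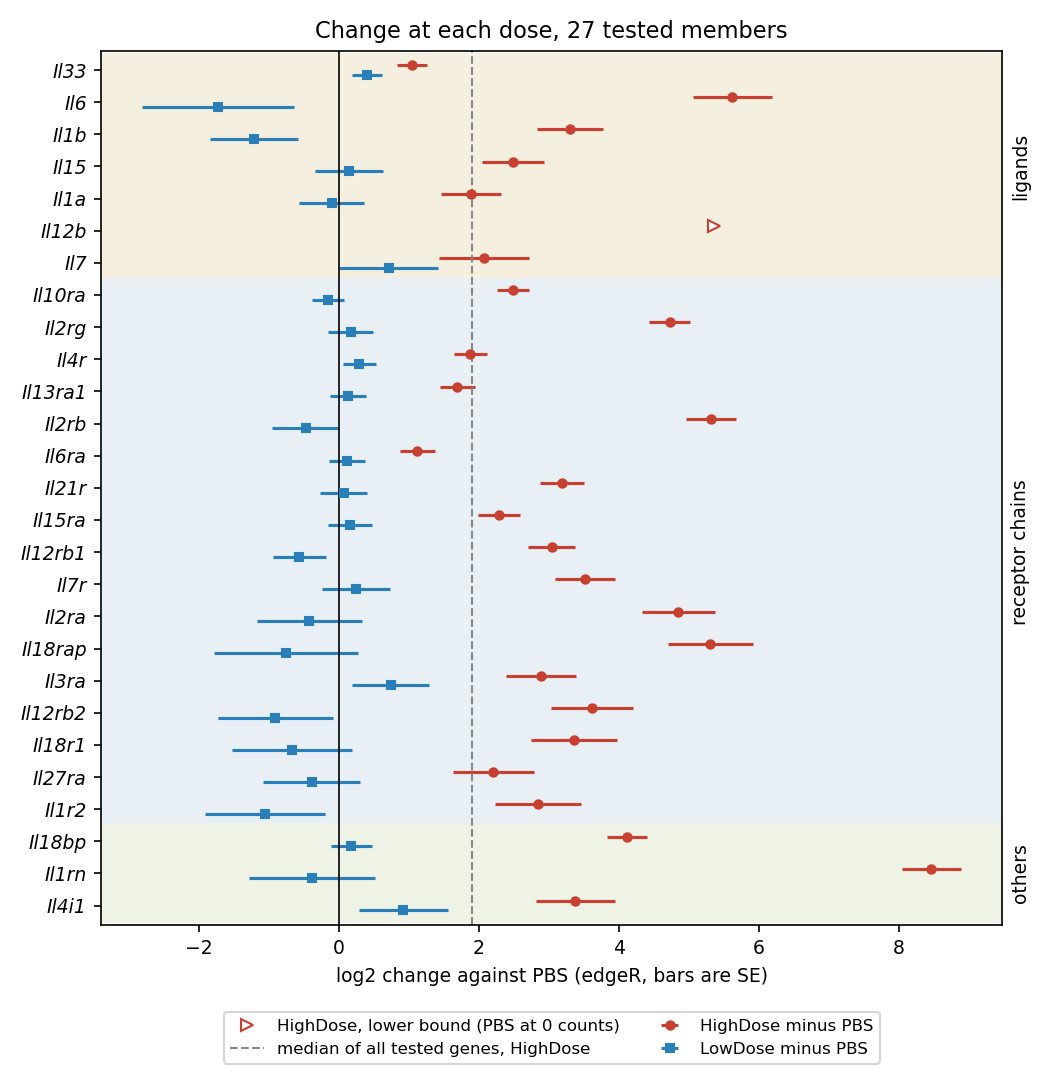
Change against PBS on the log2 scale with its SE for the 27 tested genes, HighDose in circles and LowDose in squares, with the median of all tested genes in HighDose as a dashed line. The triangle is the lower bound for Il12b, whose PBS libraries are at 0 counts and whose LowDose value is not drawn. HighDose values lie between 1.04 for Il33 and 8.46 for Il1rn, and LowDose values lie around 0.

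Levels of different genes can be compared only per length. Summed over the 9 ligands, FPKM was 19.4 ± 1.39 in PBS (SD, n = 3), 24.6 ± 1.58 in LowDose and 50.5 ± 15.1 in HighDose. Without Il33 the other 8 summed to 1.33 ± 0.212, 1.06 ± 0.0985 and 14.3 ± 6.32. The 17 receptor chains summed to 11.9 ± 1.89, 11.997 ± 1.11 and 77.9 ± 14.6. In HighDose the highest means among all 29 were those of Il33 (36.2 ± 8.94 FPKM), Il18bp (23.4 ± 4.49), Il1rn (19.55 ± 3.59), Il2rg (19.5 ± 3.10) and Il10ra (13.4 ± 2.08). The SD ranges of Il18bp, Il1rn and Il2rg overlapped, but within each HighDose library Il18bp was above Il1rn and Il2rg. Il1rn and Il2rg changed order between these libraries. In PBS the order was Il33 (18.1 ± 1.26), Il4r (2.82 ± 1.53), Il10ra (2.37 ± 0.335), Il13ra1 (1.52 ± 0.0404) and Il15ra (1.49 ± 0.0872). Il4r and Il10ra did not differ beyond their spread, nor did Il13ra1 and Il15ra. The place of Il4r rests on PBS replicate 2, whose FPKM did not follow its CPM. The PBS libraries had 1.82, 4.59 and 2.06 FPKM against 7.03, 9.25 and 8.44 CPM.

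**Figure D3:**
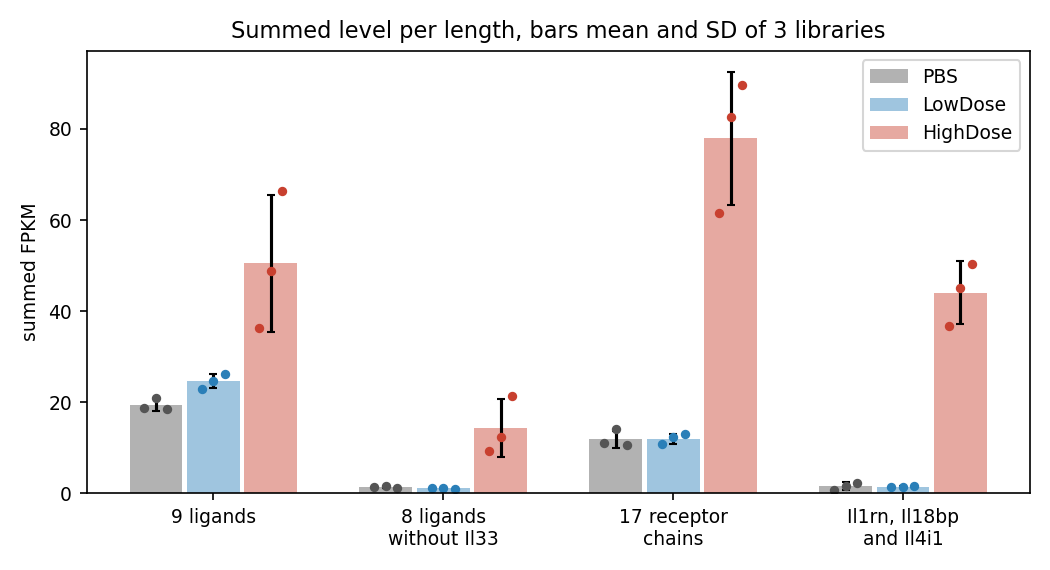
Summed FPKM of the ligands, of the ligands without Il33, of the receptor chains and of the 3 other members, with 1 point per library and bars at the mean with SD of 3 libraries. LowDose stays near PBS in all but the ligand sum with Il33, and the receptor chains reach 61.6 to 89.6 in HighDose.

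These are whole pieces of tissue, in which more or fewer cells of a type and more or less RNA per cell cannot be told apart. Summed levels of lymphocyte and myeloid markers were higher in HighDose, as were the receptor chains, but not each marker was. The myeloid markers Cd163 (-1.59 ± 0.49, adjusted p = 0.0025), P2ry12 (-0.97 ± 0.22, adjusted p = 9.04e-05) and Gpr34 (-1.07 ± 0.25, adjusted p = 0.000115) fell against PBS. Of the T cell markers, 8 of 12 were in the table, with a summed level of 0.533 to 1.06 CPM in PBS, 1.23 to 1.53 in LowDose and 13.7 to 27.3 in HighDose, and Cd3d at 0 counts in PBS. All 10 NK and cytotoxic markers were in the table, at 0.678 to 0.872 CPM in PBS, 0.379 to 0.495 in LowDose, where Klrb1c and Klrk1 were at 0, and 41.0 to 71.8 in HighDose. Of the monocyte and border macrophage markers 5 of 8 were present, at 2.26 to 3.11, 2.41 to 3.69 and 113 to 198 CPM (4 rose and 1 fell), and of the dendritic cell markers 5 of 8, at 0.533 to 1.20, 1.60 to 2.83 and 16.3 to 33.1 CPM, with Xcr1 at 0 in PBS. The 6 of 6 B cell markers summed to 0.763 to 1.11, 0.337 to 0.674 and 3.72 to 9.14 CPM, with Blk at 0 in LowDose. The microglia markers in the table, 5 of 10, summed to 88.3 to 113, 79.1 to 91.3 and 131 to 146 CPM, of which 3 rose and 2 fell. Gfap, the 1 of 7 astrocyte markers listed, was at 113 to 146, 100.02 to 168 and 374 to 534 CPM. Vwf, the 1 of 7 endothelial markers, was at 20.8 to 23.7, 19.8 to 21.8 and 38.0 to 60.4 CPM. The 2 of 7 oligodendrocyte markers summed to 443 to 555, 275 to 308 and 186 to 265 CPM. Of 7 neutrophil markers only Csf3r was listed, at 4.47 to 6.25, 4.34 to 6.25 and 11.8 to 19.0 CPM. The part of these cells in the interleukin results was not tested.

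Genes through which interleukins act were read from 3 lists, and their 30 tested genes all rose in HighDose against PBS by the library totals, where 86.3% of all tested genes did. With TMM 14 were called higher and 4 lower, and with size factors 14 and 3. Of the list of IL-1 signalling and processing, 11 of 21 genes were in the table, and all 11 rose (median log2 change 1.99). The smallest adjusted p-values belonged to Myd88, the adaptor of IL-1 receptors (3.10 ± 0.25, adjusted p = 4.21e-15), and to the proteases Casp4 (5.75 ± 0.46), Casp1, which cleaves IL-1 beta into its active form (2.94 ± 0.31), and Casp8 (2.42 ± 0.28). Of the JAK-STAT list 9 of 18 were in the table and all 9 rose (median 2.75), among them Stat2 (3.70 ± 0.24, adjusted p = 4.65e-18) and the feedback inhibitors Socs3 (3.54 ± 0.27) and Socs1 (4.22 ± 0.37). Of partner cytokines and receptor chains without an Il name 10 of 22 were in the table and all 10 rose (median 2.76). They were led by Osmr, a receptor chain for oncostatin M (3.12 ± 0.25), Csf2rb and Csf2rb2, near-identical beta chains of the IL-3 receptor family whose reads may be split between them (3.71 ± 0.31 and 3.99 ± 0.35), and Csf1 (1.92 ± 0.22). Listed genes were chosen for a difference, as above, and the medians stand beside 1.90 for all tested genes.

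In LowDose no interleukin gene passed the test against PBS. By edgeR 0 of 27 were called, with 0 at an unadjusted p under 0.05, and by DESeq2 0 as well, with 0 unadjusted. Of the 27, only 14 pass the filter on low counts in PBS and LowDose alone. The other 13 were tested only through their HighDose counts, and for them a missing call says little. In an edgeR fit of PBS and LowDose only, 14 were tested and 0 called, with 1 at an unadjusted p under 0.05. The background in this comparison was 2.59% of 1583 tested genes called, 7 higher (0.442%) and 34 lower (2.15%). With the replicate number as a block, which these groups allow, 12 were higher and 50 lower, and still 0 interleukin genes were called. The median log2 change of the members was 0.07, against -0.03 for all tested genes. In Il33 every LowDose library lay above every PBS library, and in Il1b, Il1r2 and Il2rb every LowDose library lay below. The last 3 rest on 10, 5 and 19 counts over the LowDose group, against 22, 10 and 25 in PBS. Over the 1710 listed genes 6.55% lay above and 12.7% below, so that 1 and 3 of 29 are near the background.

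Il33 was at 55.7, 59.6 and 59.9 CPM in LowDose, between PBS and HighDose with no overlap on either side. Its log2 change against PBS was 0.40 ± 0.21 (adjusted p = 0.489, and 0.0696 to 0.768 over the alternatives). Il1b was at 0.0843, 0.225 and 0.160 CPM, on 10 counts over the group against 22 in PBS (-1.20 ± 0.63, adjusted p = 0.458, and 0.303 to 0.763 over the alternatives). Il6 had 2, 0 and 0 counts and Il12b 0, 1 and 1, too few to show a difference at this depth. Il1rn had 1, 2 and 1 counts. Per length Il1a was 4.33, 2.94 and 2.25 times Il1b in LowDose, above the PBS range of 1.08 to 1.76. Il10ra (-0.15 ± 0.23), Il4r (0.29 ± 0.24), Il13ra1 (0.13 ± 0.25) and Il6ra (0.12 ± 0.25), the receptor chains with the most counts in PBS, had adjusted p-values from 0.755 to 0.935.

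HighDose against LowDose uses the same HighDose libraries as the comparison with PBS and is no independent repeat of it. All 27 tested members were higher in HighDose by the library totals, where 88.1% of all tested genes were, and none of the 29 overlapped, where 86.7% of listed genes had every HighDose library above. Lower were 0 members and 7.08% of tested genes, and wholly below 0 members and 5.96% of listed genes. The log2 change was smallest for Il33 (0.65 ± 0.21, adjusted p = 0.00477), followed by Il6ra (1.003 ± 0.25) and Il7 (1.37 ± 0.59, adjusted p = 0.0265). The call of Il7 was lost with DESeq2 (adjusted p = 0.0649) and without LowDose replicate 3 (0.153), HighDose replicate 2 (0.0754) or HighDose replicate 3 (0.1045). Il1rn differed by 8.85 ± 0.44 and Il2rb by 5.79 ± 0.37. Members with few LowDose counts differed by ratios of 194 for Il6 (95% exact counting interval 53.4 to 1608), 74.8 for Il18rap (25.3 to 366) and 65.8 for Il12b (17.9 to 549). Single libraries moved these: Il6 was at 123 without HighDose replicate 3, 127 without LowDose replicate 2 and at least 81.9 without LowDose replicate 1. Il18rap was at 142 without LowDose replicate 1 and 49.1 without LowDose replicate 2, and Il12b at 34.7 without HighDose replicate 3 and 41.7 without LowDose replicate 1. Il27 and Il10, at 0 counts in LowDose, were at least 10.97-fold and 6.77-fold higher. These bounds were 6.95 and 4.29 without LowDose replicate 1, 7.196 and 4.44 without LowDose replicate 2, and for Il10 3.94 without HighDose replicate 3.

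These values are scaled by the library totals. TMM and the size factors of DESeq2, computed within the listed genes, take most of them as unchanged and moved the median of all tested genes in HighDose against PBS from 1.90 to 0.19 and 0.22. With TMM 19 members were called higher and 2 lower, with size factors 20 and 2, in place of 27 and 0. Over all tested genes the split was 600 higher and 464 lower with TMM and 605 and 455 with size factors, in place of 1366 and 169. Il33 went to -0.68 and -0.65 and Il6ra to -0.59 and -0.56, so that the direction of both depends on the scaling. Il13ra1 (-0.044 and -0.014), Il1a, Il4r, Il7 and Il27ra were not called under either, and Il15 was not with TMM (adjusted p = 0.0526). Against LowDose, 16 were called higher and 2 lower with each, and Il4r, Il7 and Il13ra1 had changes below 0 beside Il33 and Il6ra. Il1rn, Il6, Il2rb, Il18rap, Il2ra, Il2rg and Il18bp stayed called higher with TMM and with size factors.

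**Figure D4:**
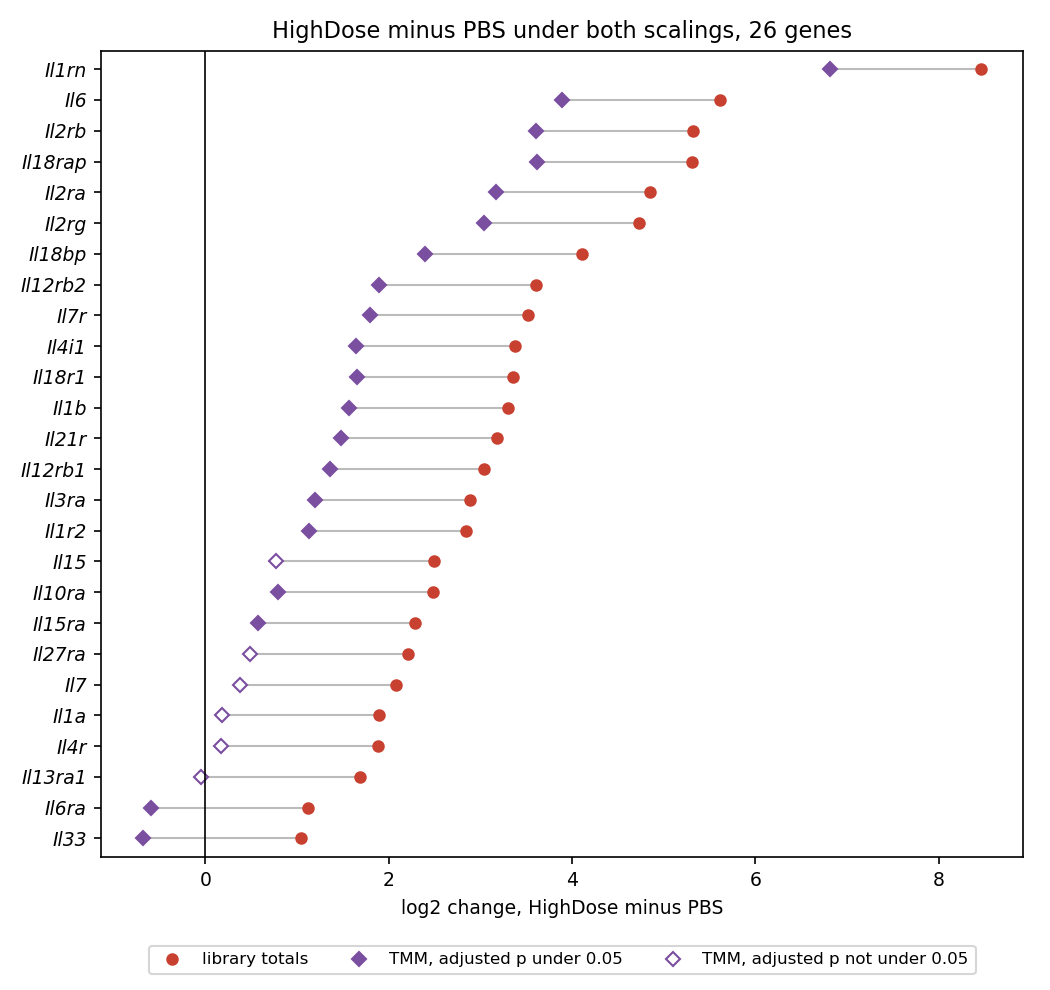
Change in HighDose against PBS on the log2 scale for 26 tested genes, without Il12b, scaled by library totals (circles) and by TMM within the listed genes (diamonds, filled where the adjusted p is under 0.05). Each gene moves down by about the same step, and Il33, Il6ra and Il13ra1 end below 0.

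Members of the family also share their place in the genome. In 4 pairs the members lie within 200 kb of each other: Il2ra and Il15ra (12.1 kb, chromosome 2), Il18r1 and Il18rap (14.5 kb, chromosome 1), Il4r and Il21r (23.96 kb, chromosome 7) and Il1a and Il1b (54.6 kb, chromosome 2). The member of each pair with the smaller log2 change in HighDose against PBS was Il15ra, Il18r1, Il4r and Il1a.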

How the data were processed

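Total RNA of 9 libraries was sequenced, 3 each of PBS, LowDose and HighDose. The authors deposited 1 table on mouse build mm10 that holds, per the file headers, a count and an FPKM for every gene and library. The count columns were deposited by the authors as estimated counts, not normalized, some with decimals. The submitters' processing notes name DESeq2 and edgeR without a role. How reads were aligned and counted, and how listed genes were picked, was not given in the sources used here. The members, lists and tests were chosen with earlier results of these data known.

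Each library total is the median of the totals implied by count, FPKM and transcript length (GENCODE M21) over 23 to 68 single-transcript genes, taken at FPKM 5, 100 counts and 600 bases or more. Its scatter was 0.0113% to 0.0448%. Rounded counts passed filterByExpr (minimum count 10, 1583 genes) and entered 1 model of 3 groups in edgeR 4.0.16 under R 4.3.3 (quasi-likelihood test, Benjamini-Hochberg adjustment over all tested genes, threshold 0.05). SE was computed from the log2 change and its F value. The fit was tested on simulated counts. Of the members, 26 had whole counts in all 9 libraries.

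Every interleukin gene was named or counted. Of each of 3 pathway lists the 4 called genes with the smallest adjusted p were named, except 1 that is not reported here. The replicate numbers are in the titles. Deviations of same-numbered libraries correlated at 0.246, 0.165 and 0.137 between LowDose and PBS, each the best match of its library. The correlations were 0.0687, -0.0057 and 0.151 between HighDose and PBS, and 0.183, 0.0142 and 0.0833 between HighDose and LowDose. In these 2 comparisons the best match was not always the own number. The correlations are weak, and 3 libraries per group cannot establish a pairing. Alternatives were TMM and DESeq2 1.42.0 size factors, no or a stricter filter (1 CPM in 3 libraries), the DESeq2 Wald test, only the groups compared, the replicate block and leaving out each library.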

Additional observations from a re-analysis of the deposited data

How the results depend on the processing

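Scaling within the listed genes was the choice that mattered most. In HighDose against PBS, TMM and DESeq2 size factors gave 2 members called lower each, Il13ra1 at -0.044 and -0.014, Il33 at -0.68 and -0.65 and Il6ra at -0.59 and -0.56. All genes came to 600 higher and 464 lower with TMM and to 605 and 455 with size factors, and the pathway genes to 14 and 4 and to 14 and 3, in place of 30 and 0. In HighDose against LowDose, 16 members were higher and 2 lower with TMM, and 16 and 2 with size factors. Il13ra1 came to -0.22 and -0.18, Il33 to -1.12 and -1.08, Il4r to -0.16 and -0.12, Il6ra to -0.75 and -0.71 and Il7 to -0.39 and -0.35. All genes there came to 565 higher and 461 lower, and to 576 and 445, and pathway genes to 14 and 3, and to 15 and 2. These scalings take most listed genes as unchanged by construction. In LowDose against PBS both left 3 genes higher and 3 lower over the table, where 11 were higher in a fit of only these 2 groups and 12 with the replicate block. The block changed no call of a member. Leaving out single libraries moved the LowDose calls over all genes between 5 and 22 higher and between 18 and 57 lower. Without LowDose replicate 1 these were 22 and 57, without LowDose replicate 2 the lower calls were 21, without LowDose replicate 3 they were 11 and 18, and without PBS replicate 2, PBS replicate 3, HighDose replicate 1 or HighDose replicate 2 the higher calls were 12, 11, 11 and 11. The cause was not tested. Members called in LowDose stayed at 0 in every setting, though the fit of 2 groups tested only 14 members and the stricter filter 22. Uncalled values crossed 0, with ranges of -1.35 to 0.25 for Il12rb2, -0.029 to 0.36 for Il15, -0.11 to 0.36 for Il18bp, -0.48 to 0.081 for Il1a and -0.98 to 1.13 for Il1rn. Further ranges were -0.12 to 0.17 for Il21r, -1.65 to 0.066 for Il2ra, -0.084 to 0.40 for Il2rg, -0.026 to 0.26 for Il6ra and -0.067 to 0.54 for Il7r. In HighDose against PBS all tested members kept their direction and call without a filter, with DESeq2 and in the fit of 2 groups. They also did so with the block and without each single library. The stricter filter left 22 members, which kept theirs, and removed Il12b, Il18r1, Il1r2, Il27ra and Il7. Depth limits Il10, Il27 and Il12b, and in PBS and LowDose also Il6, Il18r1, Il18rap and Il1rn. These are the 7 members with fewer than 10 counts over the PBS group. Over the LowDose group Il12rb2, Il1r2 and Il2ra were also below 10 counts, at 6.91, 5 and 8.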
